A study of Mus musculus with 15 samples.

Results

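The genes of MAPK feedback described here, 6 dual-specificity phosphatases and 4 Sprouty or Spred genes, were followed in ear RNA from a knockout study. The members are *Dusp1*, *Dusp2*, *Dusp4*, *Dusp5*, *Dusp6*, *Dusp10*, *Spry1*, *Spry2*, *Spry4* and *Spred1*. Each was matched by its exact symbol, and all 10 were found among the 21110 genes listed for every mouse. The study compared mice whose keratinocytes lack *Socs3*, the suppressor of cytokine signalling that restrains STAT3, with wild type mice of the same C57BL/6 strain, at ages of 2 weeks and of 10 weeks. The younger groups held 4 mice of each genotype, the older ones 3 wild type mice and 4 labelled *Socs3* cKO, with 1 library for each mouse. The deletion is driven from keratin 5, which is active in basal keratinocytes, so other cells of the ear keep the gene. RNA came from ear specimens, although the source name in the labels is keratinocytes, and the sources used here do not say which parts of the ear were taken. A level is given as FPKM, the deposited read frequency per kilobase of gene and scaled to mapped reads, and levels of different genes are therefore compared per length. Sequencing depth is unknown for these files.

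Mitogen-activated protein kinases carry signals from growth factor receptors, cytokine receptors and stress to the nucleus, and the pathway induces its own inhibitors. The dual-specificity phosphatases encoded by *Dusp* genes remove both activating phosphates from a MAP kinase, whereas Sprouty and Spred proteins act further upstream and limit Ras and Raf activation below receptor tyrosine kinases. In the epidermis the ERK branch is driven largely by the EGF receptor, and the transcript level of several of these inhibitors is widely used as a readout of ERK output.

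In every mouse *Socs3* itself was measured first as a check of the labels. In wild type mice at 2 weeks its level was 9.71, 10.2, 10.3 and 10.3 FPKM, and in mice labelled *Socs3* cKO it was 1.25, 9.32, 12.6 and 3.51 FPKM. Replicates 2 and 3 of the labelled knockout thus held wild type levels of *Socs3*. At 10 weeks the wild type mice had 2.76, 4.81 and 2.02 FPKM and the labelled knockouts 36.5, 29.8, 47.7 and 32.4 FPKM, so every labelled knockout was higher. Other cells of the ear keep the gene, and the extent of the deletion is not given in the sources used here, so this level checks the labels only in part. The mice are therefore called cKO-labelled throughout, every direction below rests on those labels, and the differences of the members at 2 weeks are also given without replicates 2 and 3.

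Other features of the libraries bear on all genes. Replicate 1 of the cKO-labelled mice at 2 weeks had the fewest genes at 1 FPKM or more, 11698 against 12223 to 13251 in the other libraries. The 3 wild type libraries at 10 weeks listed 1414 to 3176 genes at 0, against 4044 to 4423 in all others. Each sample title opens with a code of S and a number, and the labels do not say what it stands for. No such number of 1 group falls among those of another, so whatever it stands for cannot be told apart from group. The median log2 difference over all genes tested was -0.21 at 2 weeks and 0.31 at 10 weeks, and under median-of-ratios scaling it was -0.01 and 0.06. All 4 keratinocyte markers, summed to between 4720 and 11500 FPKM, were detected in each group, and so were markers of leukocytes, fibroblasts, endothelium, muscle and nerve.

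The 10 genes lie on 9 chromosomes of the mm9 build and none of their exons overlaps an exon of another annotated gene. *Dusp1* lies on the minus strand at chr17:26642535-26645464 in 4 exons, and *Dusp2* on the plus strand at chr2:127161895-127164112. *Dusp4* is at chr8:35870351-35882948, *Dusp5* at chr19:53603599-53616921, *Dusp6* at chr10:98725865-98730122 and *Dusp10* at chr1:185837181-185899515, all on the plus strand. *Spry1* is at chr3:37538869-37543520 on the plus strand, *Spry2* at chr14:106291166-106296036 on the minus strand and *Spred1* at chr2:116947110-117008015 on the plus strand.

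The stretch of 250 bases before the annotated start was read for 8 of the 10 genes from RefSeq on the GRCm38.p6 build, which differs from the build of the files. Those of 3 genes are shown, since *Dusp1* and *Dusp5* had the largest differences at 10 weeks and *Dusp2* the largest at 2 weeks. The *Dusp1* window is chr17:26508473-26508722 on the minus strand, the *Dusp5* window chr19:53528895-53529144 on the plus strand and the *Dusp2* window chr2:127335909-127336158 on the plus strand. Each is written 5′ to 3′ along its gene, and capitals mark every match to a searched motif.
Dusp1: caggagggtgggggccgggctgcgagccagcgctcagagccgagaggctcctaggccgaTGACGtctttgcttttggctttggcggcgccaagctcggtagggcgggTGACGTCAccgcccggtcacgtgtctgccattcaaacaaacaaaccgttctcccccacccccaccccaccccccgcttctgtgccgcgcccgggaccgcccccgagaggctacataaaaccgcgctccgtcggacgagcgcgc
Dusp5: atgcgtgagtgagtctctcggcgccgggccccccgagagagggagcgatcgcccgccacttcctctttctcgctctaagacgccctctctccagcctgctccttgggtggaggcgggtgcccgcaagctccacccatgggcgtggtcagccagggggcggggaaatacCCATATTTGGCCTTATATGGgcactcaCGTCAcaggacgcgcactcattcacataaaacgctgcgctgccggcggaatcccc
Dusp2: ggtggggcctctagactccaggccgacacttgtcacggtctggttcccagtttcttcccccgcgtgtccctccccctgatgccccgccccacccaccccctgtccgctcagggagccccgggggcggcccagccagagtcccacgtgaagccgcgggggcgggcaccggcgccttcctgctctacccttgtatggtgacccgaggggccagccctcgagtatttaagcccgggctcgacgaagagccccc

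Both strands were searched for the cAMP response element TGACGTCA, its core TGACG, the AP-1 site TGANTCA, the STAT site TTCNNNGAA, the ETS site CCGGAAGT, TATAAA, the CArG box bound by serum response factor, and the NF-kB site. *Dusp1*, a nuclear phosphatase of p38, JNK and ERK, held a full cAMP response element that begins 143 bases before the start and a further core match at 191 bases. That full element occurred in 1.55% of the 32851 promoter windows in the table, and the core, which overlaps it, in 17.8%. *Dusp5*, a nuclear phosphatase specific for ERK, held a pair of adjoining CArG boxes that begin 82 and 72 bases before the start, and a core TGACG match at 55 bases. The CArG box occurred in 1.47% of all windows. None of these motifs was matched in the windows of *Dusp2*, *Dusp6*, *Dusp10*, *Spry1*, *Spry2* or *Spred1*. The AP-1 site, found in 6.75% of all windows, the STAT site, found in 7.02%, the ETS site, found in 2.88%, TATAAA, found in 12.4%, and the NF-kB site, found in 7.25%, were not matched in any of the 8 windows. A match is a run of letters, and these files hold no measurement of binding there.

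Mean levels in the wild type ear at 2 weeks ran from 3.27 to 26.7 FPKM. *Dusp6*, the cytoplasmic phosphatase specific for ERK, was highest at 26.7 ± 1.24 FPKM (SD, n = 4), followed by *Spry1* at 24.5 ± 1.13, *Dusp1* at 20.5 ± 1.72, *Spred1* at 14.5 ± 0.909, *Spry2* at 14.2 ± 0.413 and *Dusp2* at 14.2 ± 1.16. *Dusp5* at 5.96 ± 1.04, *Dusp10* at 4.78 ± 1.02, *Dusp4* at 4.21 ± 0.392 and *Spry4* at 3.27 ± 0.193 FPKM came last. The ranges of neighbours in this order overlapped between *Dusp6* and *Spry1*, among *Spred1*, *Spry2* and *Dusp2*, and among *Dusp5*, *Dusp10* and *Dusp4*. In wild type mice at 10 weeks *Dusp1* led with 20.0 ± 9.54 FPKM (SD, n = 3), and only *Spred1* and *Dusp10* stood apart among neighbours. *Dusp1* also led in both cKO-labelled groups. At 10 weeks its range lay above that of *Dusp6*, next in order, whereas at 2 weeks the ranges of all neighbours in the order overlapped.

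**Figure D1:**
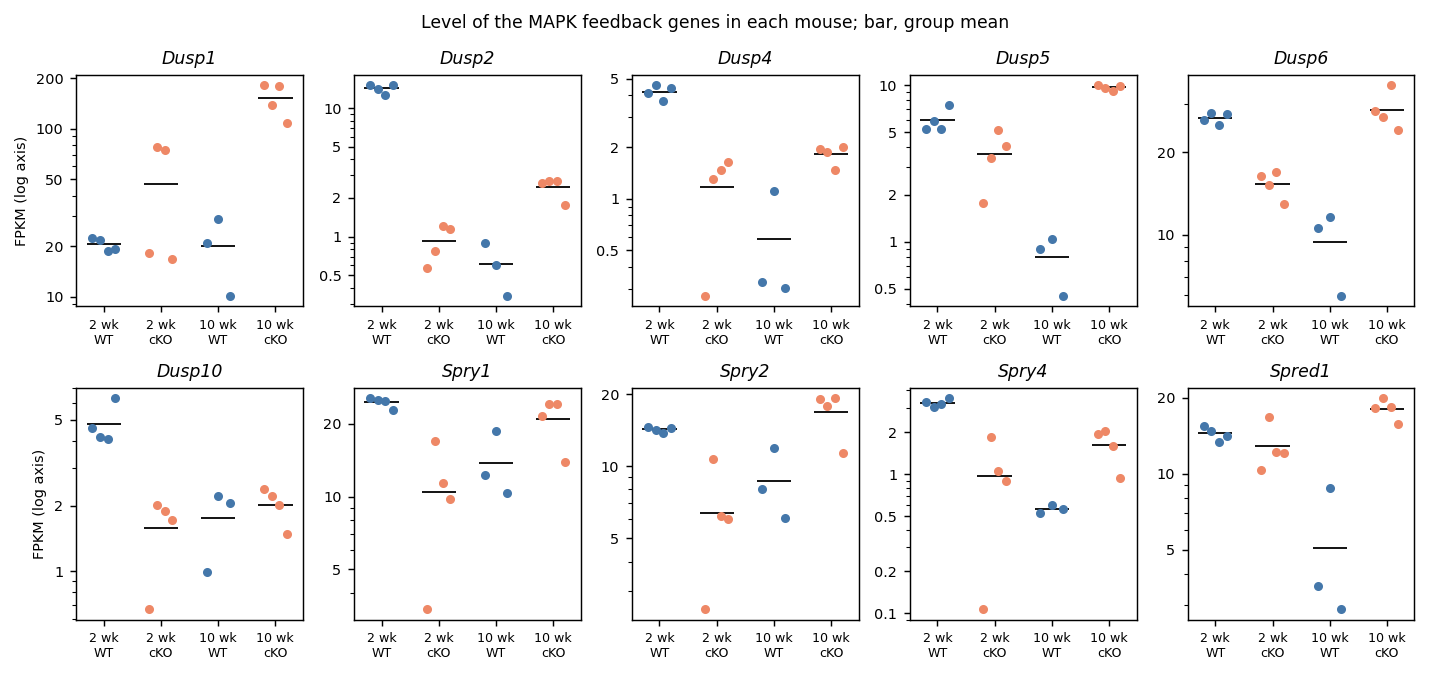
FPKM (log axis) of each of the 10 genes in each mouse, with blue points for wild type mice, orange points for cKO-labelled mice and black bars for group means. *Dusp2* lies between 12.6 and 15.1 FPKM in wild type mice at 2 weeks and at or below 2.69 FPKM in every other mouse.

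At 2 weeks, levels of most members were lower in cKO-labelled than in wild type ears, as deposited and under the other scalings, except that *Dusp5* or *Spred1* turned to just above 0 under some of them. Differences were taken on log2(FPKM + 0.1), which understates those of low genes. A gene is called when the adjusted p from limma is under 0.01 and the difference is at least 1 on the log2 scale, that is 2-fold. A gene was tested if it reached 1 FPKM in at least 3 of the libraries fitted. Of the 10 members, 2 were called lower and 0 higher, where 7.19% of the 13524 genes tested were called lower and 7.24% higher. *Dusp2* and *Spry4* reached 1 FPKM in fewer than 3 cKO-labelled mice, so they passed this filter only with the wild type mice. Groups did not overlap, with every cKO-labelled mouse below every wild type mouse, for 8 of 10 members, against 33.2% of all genes. The median difference of the members was -1.38 on the log2 scale, beside -0.21 for all genes tested. In this bulk RNA, fewer cells of a type and less RNA per cell cannot be told apart.

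Among the nuclear, inducible phosphatases, *Dusp2* fell most. Wild type mice had 15, 14.2, 12.6 and 15.1 FPKM of *Dusp2*, a phosphatase best known from activated lymphocytes, and cKO-labelled mice had 0.569, 0.769, 1.22 and 1.15 FPKM. The groups lay far apart, and the log2 difference was -3.85 (SE 0.24, adjusted p = 4.45e-05). *Dusp4*, a nuclear phosphatase of ERK and JNK, had 4.13, 4.6, 3.7 and 4.41 FPKM in wild type and 0.272, 1.3, 1.47 and 1.64 FPKM in cKO-labelled mice. All 4 cKO-labelled values were lower, but with a log2 difference of -1.97 (SE 0.46) the adjusted p of 0.0116 missed the threshold. *Dusp5* had 5.22, 5.91, 5.25 and 7.45 FPKM in wild type and 1.76, 3.43, 5.2 and 4.06 FPKM in cKO-labelled mice. Its highest cKO-labelled mouse lay just below the lowest wild type mouse, and its log2 difference was -0.79 (SE 0.32, adjusted p = 0.0663). That of *Dusp5* is -0.79 as deposited and 0.07 once trends with gene length and GC content are removed.

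*Dusp1* was the exception among them. Wild type mice had 22.2, 21.7, 18.8 and 19.2 FPKM and cKO-labelled mice 18.3, 77.7, 74.6 and 16.8 FPKM. Replicates 2 and 3 were well above every wild type mouse and replicates 1 and 4 below every one, and the log2 difference of 0.84 (SE 0.52, adjusted p = 0.202) was within the spread between mice. Those are the same replicates in which *Socs3* was at wild type levels, and without them the log2 difference of *Dusp1* was -0.22.

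*Dusp6*, the ERK phosphatase of the cytoplasm, had 26.2, 27.9, 25.2 and 27.6 FPKM in wild type and 16.4, 15.2, 16.9 and 12.9 FPKM in cKO-labelled mice. The groups were separate and tight, and the log2 difference was -0.80 (SE 0.13, adjusted p = 0.00279), which passes the test but not the 2-fold limit. *Dusp10*, which acts on p38 and JNK rather than ERK, fell from 4.56, 4.17, 4.09 and 6.27 FPKM to 0.669, 2.02, 1.9 and 1.73 FPKM. All cKO-labelled mice were lower, with a log2 difference of -1.62 (SE 0.34, adjusted p = 0.00776). Leaving out any 1 of the wild type mice, or cKO-labelled replicate 3 or 4, took the adjusted p of *Dusp10* past the threshold, to between 0.0165 and 0.0284.

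The Sprouty genes, which encode inhibitors acting between receptors and Ras or Raf, were lower in every cKO-labelled mouse without being called. *Spry1* had 25.4, 25.1, 24.7 and 22.8 FPKM in wild type and 3.43, 17.0, 11.4 and 9.73 FPKM in cKO-labelled mice, a log2 difference of -1.43 (SE 0.42, adjusted p = 0.0247). *Spry2* had 14.6, 14.2, 13.7 and 14.5 FPKM against 2.53, 10.7, 6.17 and 6.01 FPKM, a log2 difference of -1.32 (SE 0.37, adjusted p = 0.0216). *Spry4* had 3.33, 3.06, 3.18 and 3.51 FPKM against 0.107, 1.85, 1.05 and 0.893 FPKM, a log2 difference of -2.03 (SE 0.60, adjusted p = 0.0254). In all of them replicate 1 was far below the other cKO-labelled mice and replicate 2 was the highest. *Spred1*, which binds neurofibromin and limits Ras, had 15.5, 14.8, 13.4 and 14.1 FPKM in wild type and 10.3, 16.8, 12.2 and 12.1 FPKM in cKO-labelled mice. These ranges overlapped, and the log2 difference of -0.19 (95% interval -0.57 to 0.20) was near that of the median gene, and turned to 0.02 and 0.08 under median-of-ratios and quantile scaling.

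Over the 10 members, replicate 1 of the cKO-labelled group was lowest for 8 and replicate 2 highest for 6. The number called lower moved with the mice fitted, and 7.19% of all genes were called lower with every mouse. It was 4 without replicate 1, adding *Dusp4* and *Spry4*, where 13% of all genes were called lower. Without replicate 2 it was 5, where the share was 14%, and without replicates 2 and 3 it was also 5, where the share was 11.4%, adding *Spry1*, *Spry2* and *Spry4* to *Dusp2* and *Dusp10* in both cases. It was 1, *Dusp2* alone, without any 1 of the 4 wild type mice or without cKO-labelled replicate 3 or 4, where the share lay between 2.7% and 4.04%. The count thus moved together with the share of all genes. Without replicates 2 and 3 the log2 differences were -3.96 for *Dusp2*, -2.89 for *Spry4*, -2.42 for *Dusp4*, -2.06 for *Spry1*, -2.02 for *Dusp10* and -1.84 for *Spry2*. They were -1.11 for *Dusp5*, -0.87 for *Dusp6*, -0.36 for *Spred1* and -0.22 for *Dusp1*, so that all 10 estimates were below 0, beside a median of -0.35 over all genes. An exact 2-sided permutation test over the 8 mice gave p = 0.0286, the smallest that 4 against 4 mice allow, for the 8 members whose groups were separate, with no adjustment for the number of tests. Separate groups of this size always give that p, so it adds nothing to the separation, which 33.2% of all genes showed in this direction.

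At 10 weeks levels of the members were higher in cKO-labelled ears, except that *Dusp10* was below 0 under quantile scaling and with length and GC trends removed, and no member was called lower. Of the 10 members, 5 were called higher in cKO-labelled ears, where 12.5% of the 13105 genes tested were called higher and 2.43% lower. Among wild type mice *Dusp2* and *Spry4* stayed below 1 FPKM, and *Dusp4* and *Dusp5* reached it only in replicate 2. These members thus passed the filter only with the cKO-labelled mice, where they were higher. Had they been low there, they would not have been tested. Groups did not overlap, with every cKO-labelled mouse higher, for 7 of 10 members, against 31.2% of all genes. The median difference was 1.66 on the log2 scale for the members, beside 0.31 for all genes tested, which leaves 1.35 relative to the median gene. Under the other scalings, where the median of all genes was close to 0, that margin was between 1.24 and 1.46, while the share of all calls that were higher dropped from 83.7% to between 54.3% and 67.2%.

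*Dusp1* and *Dusp5* differed most. *Dusp1* had 20.8, 29.1 and 10.1 FPKM in wild type and 182, 139, 180 and 108 FPKM in cKO-labelled mice. Every cKO-labelled mouse was several-fold above every wild type mouse, and the level was 8.1-fold higher (log2 difference 3.02, SE 0.34, adjusted p = 0.000375). *Dusp5* rose from 0.893, 1.04 and 0.452 FPKM to 10.0, 9.57, 9.2 and 9.83 FPKM, with the cKO-labelled mice almost equal to one another. Its fold change was 11.4 (log2 difference 3.51, SE 0.27, adjusted p = 5.15e-05). Both kept their call under each alternative run at 10 weeks, with log2 differences from 2.59 to 3.35 for *Dusp1* and from 2.58 to 3.72 for *Dusp5*.

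*Dusp2* rose from 0.901, 0.601 and 0.347 FPKM to 2.62, 2.69, 2.69 and 1.75 FPKM, a log2 difference of 1.88 (SE 0.33, adjusted p = 0.00288). The cKO-labelled level, though higher than in wild type mice of the same age, stayed well below the 12.6 to 15.1 FPKM of wild type mice at 2 weeks. *Dusp6* rose from 10.6, 11.6 and 5.97 FPKM to 28.3, 26.8, 35.2 and 24.1 FPKM, a log2 difference of 1.64 (SE 0.25, adjusted p = 0.00152). Here the cKO-labelled mice at 10 weeks spanned the 25.2 to 27.9 FPKM of wild type mice at 2 weeks. *Dusp4* had 0.328, 1.11 and 0.304 FPKM in wild type and 1.94, 1.88, 1.47 and 2.0 FPKM in cKO-labelled mice. Groups were separate, and with a log2 difference of 1.68 (SE 0.40) the adjusted p of 0.0105 just missed the threshold. Without wild type replicate 2, the high one, it was 0.000701. *Dusp10*, on the other hand, did not separate, with 0.992, 2.23 and 2.06 FPKM in wild type and 2.39, 2.23, 2.02 and 1.48 FPKM in cKO-labelled mice. Its log2 difference was 0.25 (95% interval -0.47 to 0.97, adjusted p = 0.555), below that of the median gene, and it was -0.14 under quantile scaling and -0.15 with length and GC trends removed.

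Among the upstream inhibitors only *Spred1* was called. Its level rose from 3.58, 8.76 and 2.9 FPKM to 18.2, 19.9, 18.4 and 15.7 FPKM, a log2 difference of 1.97 (SE 0.33, adjusted p = 0.00233). *Spry1* had 12.3, 18.7 and 10.3 FPKM in wild type and 21.4, 24.0, 24.1 and 13.9 FPKM in cKO-labelled mice, and the ranges overlapped (log2 difference 0.61, SE 0.26, adjusted p = 0.0922). *Spry2* had 8.02, 11.9 and 6.1 FPKM against 19.0, 17.9, 19.2 and 11.4 FPKM, with overlap through cKO-labelled replicate 4 (log2 difference 0.97, SE 0.27, adjusted p = 0.0191). *Spry4* had 0.526, 0.597 and 0.56 FPKM against 1.95, 2.05, 1.6 and 0.937 FPKM, without overlap but short of the threshold (log2 difference 1.34, SE 0.32, adjusted p = 0.0106). For all 3 Sprouty genes, then, the estimate was positive and the call was not made.

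Replicate 4 was the lowest cKO-labelled mouse at 10 weeks for 8 of 10 members, and wild type replicate 2 the highest wild type mouse for 9 of 10. The number called higher was 7 when either of these mice was left out, where 13.7% of all genes were called higher without replicate 4 and 18.0% without wild type replicate 2, against 12.5% with every mouse. It was 3 without wild type replicate 3, where the share was 5.01% and *Dusp2* at an adjusted p of 0.0122 and *Spred1* at 0.0114 were lost. *Spred1* was also lost without wild type replicate 1 (adjusted p = 0.0121, share 6.27%), and *Dusp2* under quantile normalization (log2 difference 1.82, adjusted p = 0.0115). *Spry4* failed the filter, and was not tested, without cKO-labelled replicate 1, 2 or 3. An exact 2-sided permutation test over the 7 mice gave p = 0.0286, the smallest that 4 against 3 mice allow, for *Dusp1*, *Dusp2*, *Dusp4*, *Dusp5*, *Dusp6* and *Spred1*. By the same exact test p was 0.0571 for *Spry4*, 0.0857 for *Spry2*, 0.114 for *Spry1* and 0.571 for *Dusp10*, none adjusted.

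**Figure D2:**
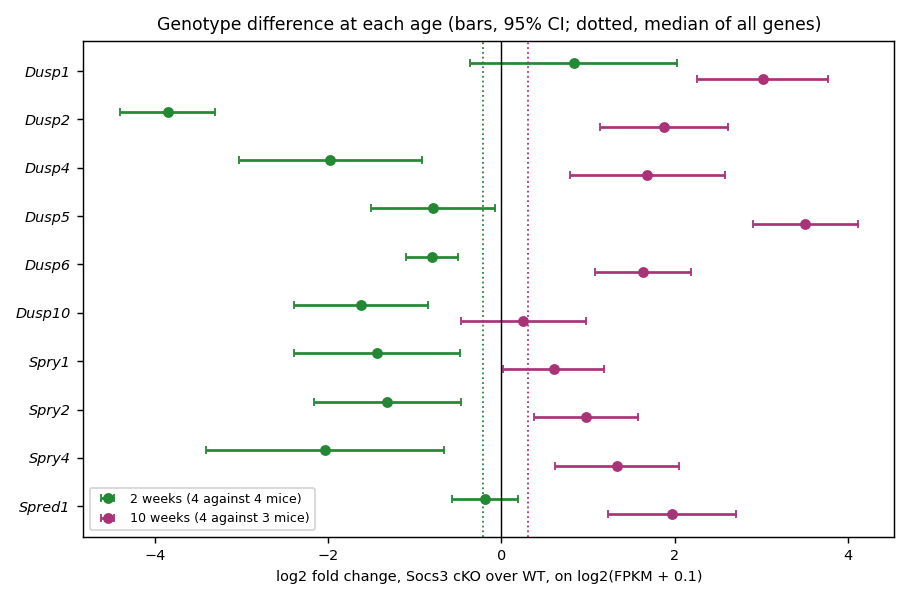
Log2 fold change of cKO-labelled over wild type mice for each gene at 2 weeks (green) and 10 weeks (purple), with 95% confidence intervals. Dotted lines mark the median over all genes tested, -0.21 at 2 weeks and 0.31 at 10 weeks, and 9 of 10 genes lie left of 0 at 2 weeks while all 10 lie right of 0 at 10 weeks in the values as deposited, of which *Dusp5*, *Spred1* and *Dusp10* cross 0 under another scaling.

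Whether the genotype difference itself changed with age was tested with an interaction term in 1 fit of all 15 mice. The signed difference, cKO-labelled minus wild type, was more positive at 10 weeks for all 10 members. Of them 9 were called, where 18.0% of the 13937 genes tested were called in that direction. The term does not compare sizes. As deposited, the size was smaller at 10 than at 2 weeks for *Dusp2*, *Dusp4*, *Dusp10*, *Spry1*, *Spry2* and *Spry4*, whose sign changed. It was greater for *Dusp1*, *Dusp5*, *Dusp6* and *Spred1*. *Dusp2* had the largest interaction, 5.73 on the log2 scale (SE 0.40, adjusted p = 1.08e-06), followed by *Dusp5* at 4.30 (SE 0.43, adjusted p = 1.78e-05) and *Dusp4* at 3.66 (SE 0.65, adjusted p = 0.000964). *Spry4* had 3.37 (SE 0.73, adjusted p = 0.00298), and *Dusp6*, *Spry2*, *Spred1*, *Spry1* and *Dusp10* lay between 1.87 and 2.44. Only *Dusp1* was not called, at 2.18 (SE 0.69, adjusted p = 0.0196). Without replicates 2 and 3 of the cKO-labelled mice at 2 weeks, its interaction was 3.24 (adjusted p = 0.000288) and all 10 members were called, where 26.5% of all genes were. The median of all genes was itself 0.55, and relative to it the members lay between 1.32 and 5.18. *Spry1* and *Dusp10* were the members whose interaction call was lost most often, with adjusted p up to 0.028 and 0.033 under the alternatives.

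**Figure D3:**
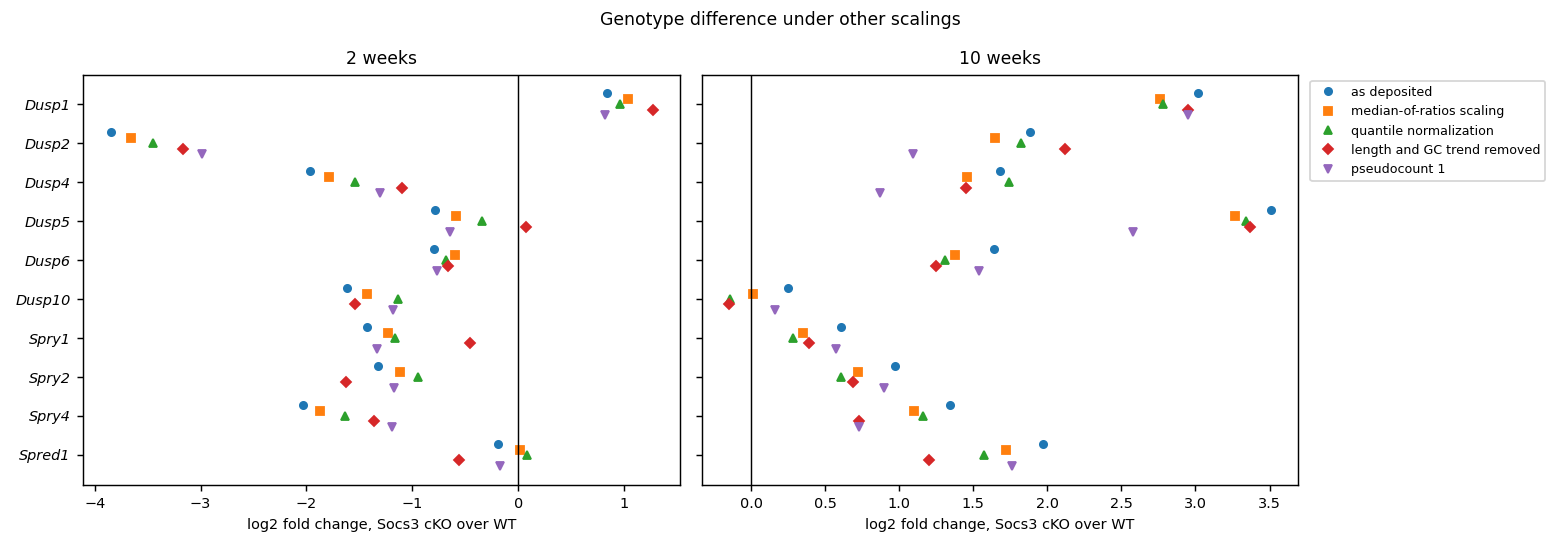
Log2 fold change of cKO-labelled over wild type mice for each gene at 2 weeks (left) and 10 weeks (right), with 1 symbol for the values as deposited and for each of 3 other scalings and a pseudocount of 1. *Dusp5* and *Spred1* cross 0 at 2 weeks and *Dusp10* crosses 0 at 10 weeks, whereas *Dusp1* at 10 weeks and *Dusp2* at both ages stay on one side.

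The interaction is made of an age difference within each genotype, and the comparisons share mice. Between 2 and 10 weeks, 7 members fell in wild type ears, where 19.4% of genes were called lower, and groups did not overlap for 9 members, against 49.5% of genes. The fall was largest for *Dusp2*, by 4.39 on the log2 scale (SE 0.29, adjusted p = 1.72e-07), with *Dusp4* at -2.85, *Dusp5* at -2.81 and *Spry4* at -2.35. *Spred1*, *Dusp6* and *Dusp10* also fell, by 1.66, 1.55 and 1.45. The call of *Dusp10* was lost under each of the 3 other scalings, at -1.07 under median-of-ratios, -0.77 under quantile and -1.01 with length and GC trends removed (adjusted p from 0.012 to 0.0255). It was also lost without wild type replicate 1 or 4 at 2 weeks or 1 or 3 at 10 weeks, and that of *Spry4* without wild type replicate 1 or 3 at 10 weeks (adjusted p = 0.0131 each). *Spry1* at -0.87, *Spry2* at -0.76 and *Dusp1* at -0.16 were not called, and *Dusp1* was at 0.23 under median-of-ratios scaling. The median over all genes was -0.44. In cKO-labelled ears 2 members rose with age, *Dusp5* by 1.49 (SE 0.29, adjusted p = 0.00519) and *Dusp2* by 1.34 (SE 0.27, adjusted p = 0.00651), where 2.01% of genes were called higher. Groups did not overlap, with every mouse at 10 weeks higher, for 5 members, namely *Dusp1*, *Dusp2*, *Dusp5*, *Dusp6* and *Spry2*, against 7.71% of genes. Leaving out cKO-labelled replicate 1, 2 or 3 at 10 weeks left 0 members called there, where 1.24% to 1.34% of genes were, and leaving out any 1 wild type mouse at 2 weeks left 1, where 1.66% to 1.69% were.

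The make-up of the family shifted along with its level. Summed over the 10 genes, the level was 125 to 136 FPKM in wild type mice at 2 weeks, 39.1 to 85.7 FPKM in those at 10 weeks and 189 to 293 FPKM in cKO-labelled mice at 10 weeks. The cKO-labelled mice at 2 weeks split into 54.4 and 67.0 FPKM in replicates 1 and 4 and 147 and 132 FPKM in replicates 2 and 3. *Dusp1* made up 14.2% to 16.3% of the sum in the younger wild type mice, 25.8% to 35.2% in the older ones and 56.5% to 63.2% in cKO-labelled mice at 10 weeks. The Sprouty and Spred genes together held 40.7% to 44.1%, 41.4% to 50.9% and 21.0% to 26.0% in the same groups. In cKO-labelled mice at 2 weeks *Dusp1* made up 33.7%, 52.9%, 56.5% and 25.1% and the Sprouty and Spred genes 30.1%, 31.6%, 23.3% and 42.9%. Replicate 3 thus lay within or at the edge of both ranges of the cKO-labelled mice at 10 weeks, replicate 2 lay near them, and replicate 4 held a wild type share of Sprouty and Spred. Thus at 10 weeks the upstream inhibitors were the smaller part of the sum in every cKO-labelled mouse and *Dusp1* alone the larger part, although *Spred1* had risen.

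**Figure D4:**
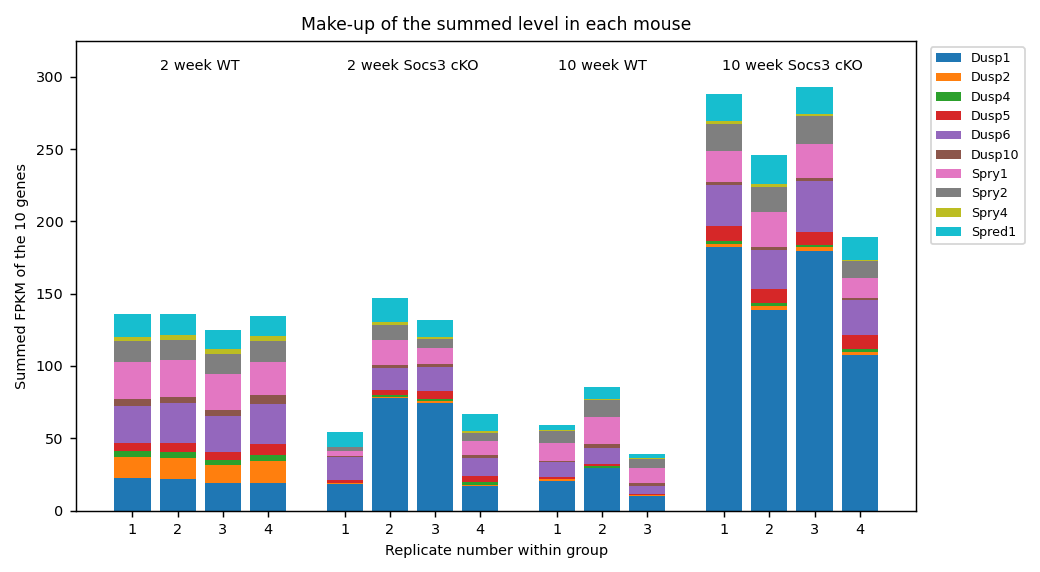
Summed FPKM of the 10 genes in each mouse, stacked by gene, with mice ordered by replicate number within each group. *Dusp1* takes 56.5% to 63.2% of each bar in cKO-labelled mice at 10 weeks and 14.2% to 16.3% in wild type mice at 2 weeks.

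*Dusp1* is an immediate early gene, and it was set beside *Fos*, *Egr1*, *Atf3* and *Jun*, transcription factor genes of the same early response. In cKO-labelled mice at 2 weeks *Fos* was 39.7, 204, 228 and 8.38 FPKM, *Atf3* 6.28, 20.1, 21.4 and 3.62 FPKM, *Egr1* 10.8, 110, 67.3 and 9.99 FPKM and *Jun* 5.42, 57.6, 42.6 and 11.9 FPKM. All were highest in replicates 2 and 3, as *Dusp1* was. Wild type mice of that age had 11.9 to 15.6 FPKM of *Fos*, 3.93 to 6.25 FPKM of *Atf3*, 50.5 to 55.7 FPKM of *Egr1* and 35.2 to 43.6 FPKM of *Jun*. Replicates 1 and 4 were thus far below wild type for *Egr1* and *Jun*, and replicate 3 was within the wild type range for *Jun*. At 10 weeks *Fos* was 113 to 197 FPKM in cKO-labelled and 1.14 to 7.74 FPKM in wild type mice, without overlap. Of 6 genes listed as markers of tissue handling and heat shock, which include *Fos*, *Jun* and *Atf3*, 5 were called higher at 10 weeks, where 12.5% of all genes were, and 0 at 2 weeks, where 7.24% were. Their summed level was 339 to 558 FPKM in cKO-labelled and 70.8 to 125 FPKM in older wild type mice, and in the younger groups 95.6 to 429 FPKM against 180 to 194 FPKM. *Dusp1* is also induced by glucocorticoids, and of 5 further glucocorticoid-induced genes 3 were called higher at 10 weeks, *Zbtb16* by 2.78, *Per1* by 2.32 and *Sgk1* by 1.76 on the log2 scale. At 2 weeks 1 of them, *Tsc22d3*, was called higher, by 1.32. This list summed to 314 to 384 FPKM against 110 to 156 FPKM at 10 weeks and to 237 to 318 FPKM against 176 to 190 FPKM at 2 weeks. At 2 weeks, however, only 2 of the 5 genes had estimates above 0, and the median log2 difference of the list was -0.71. *Tsc22d3* alone held 135 to 180 FPKM of that sum in cKO-labelled mice against 58.2 to 69.6 FPKM in wild type mice. The part of dissection, handling or stress hormones in the level of *Dusp1* was not tested.

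**Figure D5:**
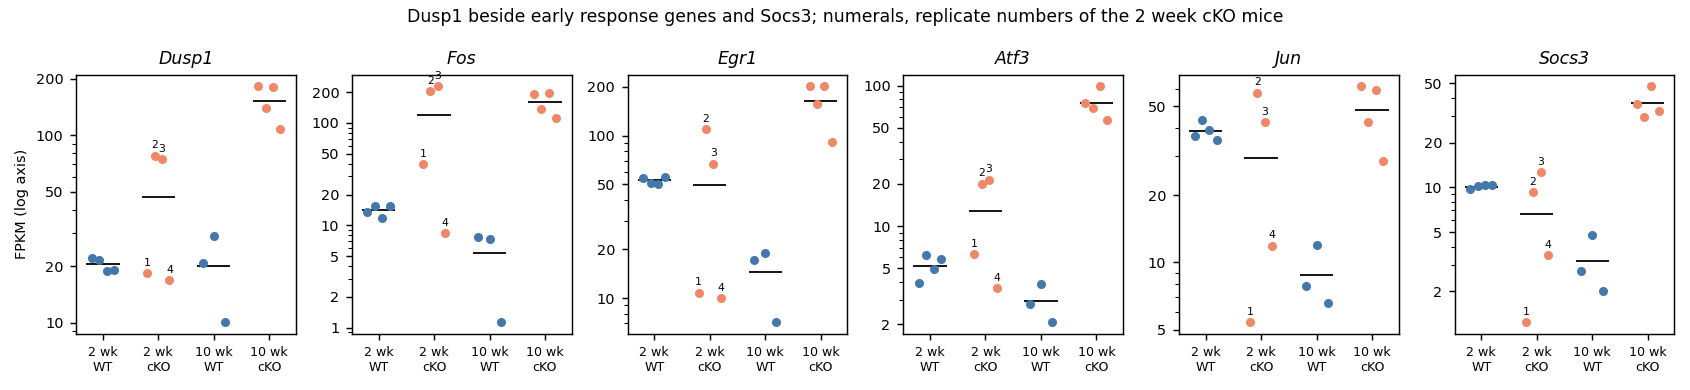
FPKM (log axis) of *Dusp1*, *Fos*, *Egr1*, *Atf3*, *Jun* and *Socs3* in each mouse, with wild type mice in blue, cKO-labelled mice in orange, bars for group means and numerals for the replicates of the cKO-labelled group at 2 weeks. Replicates 2 and 3 hold the highest values of that group in all 6 panels, 77.7 and 74.6 FPKM for *Dusp1*.

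Related genes outside the 10 were read from lists of the pathway, and their counts stand beside 12.5% of all genes called higher and 2.43% lower at 10 weeks, and 7.24% higher and 7.19% lower at 2 weeks. Of 4 other MAP kinase phosphatases, 3 passed the filter on low values. *Dusp8*, which acts on JNK and p38, had 0.216 to 0.315 FPKM in wild type and 2.77 to 4.94 FPKM in cKO-labelled mice at 10 weeks. Its log2 difference was 3.47 (SE 0.29, adjusted p = 7.94e-05). It passed the filter only through the cKO-labelled group, and the size of the difference rests on wild type values close to 0. *Dusp7*, like *Dusp6* a cytoplasmic ERK phosphatase, rose by 1.99 (SE 0.29, adjusted p = 0.00139), and *Dusp16* missed the threshold at 1.06 (adjusted p = 0.0115). At 2 weeks none of the 3 was called and all 3 estimates were below 0. Among 3 other Sprouty and Spred genes, *Spred2* rose by 3.14 (SE 0.56, adjusted p = 0.00313) at 10 weeks, *Spred3* fell by 1.94 (SE 0.33, adjusted p = 0.00322) at 2 weeks, and *Spry3* was listed at 0 in every mouse. Of the atypical dual-specificity phosphatases, most of which do not act on MAP kinases, 2 of 10 tested were called higher at 10 weeks, *Dusp3* by 2.41 and *Dusp11* by 1.04, and 0 of 13 called at 2 weeks.

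Genes that carry the signal from Ras to ERK were called about as often as genes in general at 10 weeks. Of 18 tested, 2 were called higher, against 12.5% of all genes, *Braf* by 1.20 and *Ptpn11*, the phosphatase that couples receptors to Ras, by 1.12, and 0 of 18 were called at 2 weeks. All 18 estimates were nevertheless below 0 at 2 weeks, with a median of -0.60 beside -0.21 for all genes. Groups did not overlap, with cKO-labelled mice lower, for 9 of the 18, against 33.2% of all genes. In the p38, JNK and ERK5 cascades 1 of 14 was called higher at 10 weeks, *Map2k6* by 1.30, and 1 of 14 lower at 2 weeks, *Mapk7*, the gene of ERK5, by 2.23. Of 10 other output genes of ERK, 7 were called higher at 10 weeks, among them *Egr1* by 3.54 and *Ier3* by 2.69. *Fosl1*, an AP-1 gene, was 27.3 to 61.7 FPKM in cKO-labelled mice at 10 weeks and at most 0.186 FPKM in the wild type mice, and no fold is given against values so close to 0. At 2 weeks 3 of 9 output genes tested were called lower, *Phlda1* by 2.41, *Etv4* by 1.79 and *Ccnd1* by 1.21. Of 9 other inhibitors of receptors and Ras, 4 were called higher at 10 weeks, led by *Errfi1*, which blocks the EGF receptor, at 3.41, *Cbl*, a ubiquitin ligase for such receptors, at 2.54, and *Lrig1* at 1.14. *Lrig1* was the 1 called lower at 2 weeks, by 1.33. Among receptors and ligands upstream 8 of 15 were called higher at 10 weeks, led by the EGF family ligands *Epgn* at 3.79, *Hbegf* at 3.74 and *Ereg* at 3.50. At 2 weeks *Ereg* and *Btc* were called higher, by 2.60 and 1.32, and *Tgfa* and *Areg* lower, by 2.49 and 2.37.

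Marker genes of other cell types moved with the groups as well, and their counts are read against the same shares of all genes. At 10 weeks all 3 endothelial markers were called higher in cKO-labelled ears, *Kdr* by 2.15, *Pecam1* by 1.35 and *Cdh5* by 1.25, and their summed level was 26.0 to 35.1 FPKM against 9.31 to 12.6 FPKM in wild type. Leukocyte markers, 5 of 6 of them listed, had 3 called higher, *Itgam* by 1.64, *Ptprc* by 1.38 and *Cd68* by 1.27, and summed to 533 to 943 FPKM against 231 to 391 FPKM. Of 4 fibroblast markers, *Pdgfra* was called higher, by 1.34, with a summed level of 4170 to 7420 FPKM against 2640 to 4770 FPKM, and of 4 keratinocyte markers 0. Muscle, cartilage, adipocyte, Schwann cell and melanocyte markers had 0 called at 10 weeks. Of the 4 muscle markers 1 had an estimate above 0, and 2 were lower without overlap. Their sum was 209 to 398 FPKM against 366 to 672 FPKM. All tested cartilage, adipocyte, Schwann cell and melanocyte markers had estimates above 0. Adipocyte markers summed to 41.5 to 92.7 FPKM against 22.5 to 42.6 FPKM, and both of these sums overlapped. At 2 weeks, when most members were lower, the fibroblast genes *Col1a1* and *Col1a2* were called lower, by 3.06 and 1.72, and *Dcn* higher by 1.24, with a summed level of 3180 to 4380 FPKM against 7920 to 9520 FPKM. The cartilage gene *Col2a1* was also called lower, by 2.89, where *Matn1* of the same list was at 0 in every mouse of both groups. *Acan*, the other cartilage marker, was not called. It had 3.4, 31.8, 29.8 and 32.2 FPKM in cKO-labelled mice, so that only replicate 1 lay outside the 25.0 to 34.4 FPKM of wild type mice. *Krt14* of basal keratinocytes was called higher by 1.02, and it was the only 1 of the 4 keratinocyte markers with an estimate above 0. The summed level of these 4 was 5700 to 11500 FPKM in cKO-labelled and 7560 to 8300 FPKM in wild type mice, with overlap. The muscle genes *Tnnt3* and *Ckm* were called higher by 2.05 and 1.64, with muscle markers at 924 to 1490 FPKM against 427 to 644 FPKM. Leukocyte markers summed to 259 to 609 FPKM against 170 to 202 FPKM at 2 weeks, with 0 of 5 called. Of these sums *Lyz2* alone held 212 to 558 FPKM against 133 to 167 FPKM. Only 3 of the 5 had estimates above 0, those 3 without overlap. *Itgam* was lower in every cKO-labelled mouse, at 1.39 to 2.85 FPKM against 3.33 to 3.75 FPKM. Endothelial, Schwann cell and melanocyte markers had 0 called at 2 weeks, but their summed levels were lower without overlap. The endothelial sum was 34.7 to 42.4 FPKM against 48.1 to 54.8 FPKM, with all 3 estimates below 0. For Schwann cell markers it was 102 to 241 FPKM against 290 to 321 FPKM, with 1 of 3 estimates above 0. For melanocyte markers it was 36.6 to 67.4 FPKM against 69.5 to 90.5 FPKM. The part of changing cell make-up in the levels of the members was not tested.

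Genes with the most similar pattern to each member were found by Pearson's r of log2 levels over the 15 mice, among 13937 genes. The points share library and group, so r describes the likeness and no more. For *Dusp1* they were *Fosb* (r = 0.986), *Atf3* (0.971) and *Zfp36* (0.962), immediate early genes again. For *Dusp5* they were *Plk2* (0.957), *Rnd3* (0.956) and *Actg1* (0.95), and for *Dusp6* *F2r* (0.961), *1600029D21Rik* (0.947) and *S1pr3* (0.945). *Dusp2* was nearest to *Gprc5a* (0.971), *Mex3a* (0.966) and *Arid3a* (0.961), *Dusp4* to *Chst14* (0.982), *Vav2* (0.981) and *Patz1* (0.981), and *Dusp10* to *Cntfr* (0.972), *Farp1* (0.965) and *Astn2* (0.963). Among the upstream inhibitors, *Spry1* was nearest to *Ell* (0.985), *Fmnl1* (0.976) and *Sash1* (0.974), and *Spry2* to *Zfp36l1*, *Map3k14* (both 0.989) and *Il17ra* (0.988). *Spry4* was nearest to *Caskin2* (0.984), *Zfp609* (0.983) and *Mafg* (0.981), and *Spred1* to *Lrch3*, *Zcchc6* (both 0.985) and *Fem1c* (0.984). No member appeared among the 3 nearest genes of another member.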

How the data were processed

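RNA from ears of 15 mice was sequenced on a HiSeq system as single reads of 50 bases, from TruSeq libraries that do not keep the strand. Per the labels, the authors aligned reads to mm9, and their processing notes name TopHat2 2.1.0 and Cufflinks, without its version or role. They deposited 1 FPKM value for each of 21110 genes in each mouse. FPKM is scaled for gene length and mapped reads, and read counts were not used here, so depth is unknown and no counting error could be given. The authors tested with edgeR, and here limma 3.58.1 in R 4.3.3 was used on log2(FPKM + 0.1) with a trended prior variance, since FPKM values are not counts. The paper names more wild type mice than the 7 analysed here.

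Groups and replicate numbers came from the labels. Genes with at least 1 FPKM in at least 3 of the libraries fitted were tested, the 2 genotypes being fitted alone at each age, and all 4 groups together for the interaction and the age comparisons. A gene low in 1 group can pass through the other alone. At 10 weeks *Dusp2*, *Spry4*, *Dusp8*, *Cbl*, *Epgn*, *Zbtb16* and *Fosl1*, among others, stayed below 1 FPKM in every wild type mouse. Adjusted p-values (Benjamini-Hochberg) cover all genes tested. A gene was called at an adjusted p under 0.01 and an absolute log2 difference of at least 1. All 10 members are named, as are *Socs3*, up to 3 called genes of each list with the largest difference at 10 weeks and up to 2 at 2 weeks, and the 3 genes most like each member. *Dusp16*, *Spry3*, *Ccnd1*, *Areg*, *Btc*, *Dcn*, *Matn1*, *Acan* and *Lyz2*, and the early gene values beside *Dusp1*, were chosen after their values were seen. The members and the gene lists were chosen with earlier results of these data known. No 2 replicates were copies of each other. Same-numbered mice of the 2 genotypes did not deviate together, with correlations from -0.209 to 0.135, so numbers were not used as pairs. Promoter windows came from RefSeq tables, and figures were drawn with matplotlib 3.10.9.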

Additional observations from a re-analysis of the deposited data

Results flagged for a closer look

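The signed genotype difference of 9 members was more positive at 10 than at 2 weeks by the interaction term of limma at an adjusted p under 0.01. Of all genes tested 18.0% were called in that direction, and their median interaction was 0.55. On the log2 scale the interaction was 5.73 for *Dusp2*, 4.30 for *Dusp5*, 3.66 for *Dusp4*, 3.37 for *Spry4*, 2.44 for *Dusp6*, 2.29 for *Spry2*, 2.16 for *Spred1*, 2.04 for *Spry1* and 1.87 for *Dusp10*. The wild type mice of both ages enter these values. Between the wild type ages 7 of the members were called lower at 10 weeks, where 19.4% of all genes were. Whether a change of processing between the groups has a part in them cannot be told apart from age and genotype.

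One mouse stood away from the other 3 of its group in 2 of the 30 groups of 4 looked at, by Dixon's gap test. Both were cKO-labelled replicate 4 at 10 weeks, with 1.75 FPKM of *Dusp2* and 11.4 FPKM of *Spry2*. Chance flags about 1 in 20 such groups.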

How the results depend on the processing

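The count of members called lower at 2 weeks, 2 as reported, was 4 with a pseudocount of 1, under quantile normalization and with length and GC trends removed (added after seeing the data), where 9.06%, 9.61% and 6.37% of all genes were called lower, against 7.19% as reported. It was 6 in 1 fit of all 4 groups (15.3% of all genes), 5 without cKO-labelled replicates 2 and 3 (11.4%), and 1 with no filter (5.91%). It was 1 to 5 with 1 mouse left out (2.7% to 14%). The count called higher at 10 weeks, 5, was 3 to 7 with 1 mouse left out (5.01% to 18.0%) and 4 to 7 otherwise (6.54% to 14%). The count called higher with age in cKO-labelled mice, 2, was 4 under median-of-ratios scaling, with length and GC trends removed and without replicates 2 and 3 at 2 weeks (2.22%, 3.0% and 2.54% of all genes, against 2.01%), and 0 to 3 with 1 mouse left out (1.24% to 3.06%). With the replicate number as a block these counts were 1 at 2 weeks, 6 at 10 weeks (*Spry2* added) and 0 for age in cKO-labelled mice, where 2.6%, 12.3% and 1.55% of all genes were called in those directions. The interaction count was 6 to 10 (9.3% to 26.5% of all genes) and the count called lower with age in wild type 5 to 7 (9.57% to 25.8%).

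Estimates changed sign for *Dusp1* at 2 weeks without replicates 2 and 3 (-0.22), *Dusp5* at 2 weeks with length and GC trends removed (0.07), *Spred1* at 2 weeks under median-of-ratios (0.02) and quantile scaling (0.08), and *Dusp10* at 10 weeks under quantile scaling (-0.14), with length and GC trends removed (-0.15) and without wild type replicate 1 (-0.09, in a range of -0.09 to 0.45 with 1 mouse left out). In the wild type age comparison *Dusp1* turned to 0.23, 0.26 and 0.17 under median-of-ratios, quantile and length and GC settings and to 0.27 without wild type replicate 3 at 10 weeks, in a range of -0.5 to 0.27 with 1 mouse left out. None of these estimates was called, and the cause was not tested. Without depth, the precision of levels below 1 FPKM is unknown.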
